A study of Mus musculus with 3 samples.

Results

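Complement factor D (Cfd), also called adipsin, and the fatty acid transporter Slc27a1 were examined in mouse spleen together with 8 other genes of fat cells, to ask whether their higher signals late after islet transplantation came with those of other fat cell genes. The 10 genes were Cfd, Adipoq, Retn, Slc27a1, Lpl, Fabp4, Plin1, Cidec, Pnpla2 and Pparg. They were taken by gene name from the array, which held 13 probes for them among 55679 probes and 34796 gene names. Of these, 11 probes of 9 genes were well above background on at least 1 array, as were 32108 probes in all. Cfd and Slc27a1 were chosen because of their signals on these same arrays, so their ratios are given as a description.

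Total RNA from the spleen of C57BL/6J mice was measured on 3 one-colour arrays, 1 array for each day. The recipients had been made diabetic with streptozotocin and, by the treatment text of the series, all received 25 islets into the spleen and 100 islets beneath the kidney capsule, although the sample labels name the capsular graft for the day 139 spleen only. The spleen was taken just after transplantation (day 0), on day 2, or on day 139, the last from mice whose graft-bearing kidney had been removed on day 100. The recipients were male by the methods, which give an age of 8 to 16 weeks for the animals analysed. That range cannot be the age at harvest of the day 139 spleen, because 139 days is longer than 16 weeks. How many mice went into a sample is not stated in the sources used here. All 3 spleens thus came from recipients made diabetic and given islets in the spleen, no spleen without islets was measured, and time after transplantation, age and the nephrectomy cannot be told apart. With 1 array per day no test between days was possible. Each difference was set against the error that the scanner software gave for the spot and against the spread of probes of like brightness.

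White adipocytes store triglyceride in a single large droplet and release it as fatty acids. They secrete hormones and complement factors (adiponectin, resistin, adipsin), take up fatty acids that lipoprotein lipase frees from lipoproteins, and depend on the nuclear receptor PPARγ for their identity. Several of these genes are not private to fat: macrophages and capillary endothelium use Fabp4, Lpl and Pparg, and muscle uses Slc27a1. In whole spleen, more cells of a type and more RNA per cell cannot be told apart.

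The promoter sequences of the 3 members with the clearest difference at day 139 are shown first, with a search for motifs of adipocyte regulators. Each is the sequence just before the annotated start of the gene in RefSeq (GRCm38.p6, plus strand), 250 bases for Cfd at chr10:79890603-79890852 and Adipoq at chr16:23146286-23146535, and a shorter stretch for Slc27a1 at chr8:71568621-71568727, where the next bases lie inside the gene. Capitals mark matches to CCAAT on either strand, the only one of 6 searched motifs that these stretches held.
Cfd: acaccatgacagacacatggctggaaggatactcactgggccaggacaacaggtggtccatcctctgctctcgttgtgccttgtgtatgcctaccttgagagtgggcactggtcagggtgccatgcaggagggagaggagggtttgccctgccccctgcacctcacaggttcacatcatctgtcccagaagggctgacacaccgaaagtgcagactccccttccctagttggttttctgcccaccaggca
Slc27a1: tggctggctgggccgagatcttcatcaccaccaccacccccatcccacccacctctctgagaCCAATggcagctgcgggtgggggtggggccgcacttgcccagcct
Adipoq: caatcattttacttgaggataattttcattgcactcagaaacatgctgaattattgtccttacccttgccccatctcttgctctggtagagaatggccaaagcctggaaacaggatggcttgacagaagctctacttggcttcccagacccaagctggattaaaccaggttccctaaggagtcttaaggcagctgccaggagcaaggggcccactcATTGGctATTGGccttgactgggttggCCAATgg
Adipoq held 3 such matches close to its start, Slc27a1 held 1 and Cfd held none. CCAAT was present in 33.8% of all 32851 promoter windows of 250 bases. The other motifs, searched on both strands, were AGGTCA (a half-site of nuclear receptors, in 14.0% of windows), the paired site bound by PPARγ with its RXR partner (2 such half-sites in direct repeat with 1 base between, in 0.0335%, each match also holding the half-site), TTGCNNAA (a C/EBP motif, in 9.56%), TATAAA (in 12.4%) and GGGCGG (a GC box, in 32.7%). None of the 13 windows of 250 bases listed for 8 of the members held the paired site. Fabp4 and Lpl have no window there. TTGCNNAA was held at 2 places by Plin1, at 2 by 1 window of Pparg and at 1 by 1 window of Cidec. The half-site was held by 2 of the 3 Pparg windows, and TATAAA by 1 of them. The other windows of Slc27a1 held GGGCGG at 1 and 3 places and CCAAT at 0 and 1. These matches describe letters in these windows only.

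The signals of the 13 probes are given below in normalized units, where quantile normalization gave the 3 arrays the same distribution. Signals of different probes are not comparable with each other. The lowest signal called well above background was 12.9 on day 0, 14.0 on day 2 and 18.2 on day 139.

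**Figure D1:**
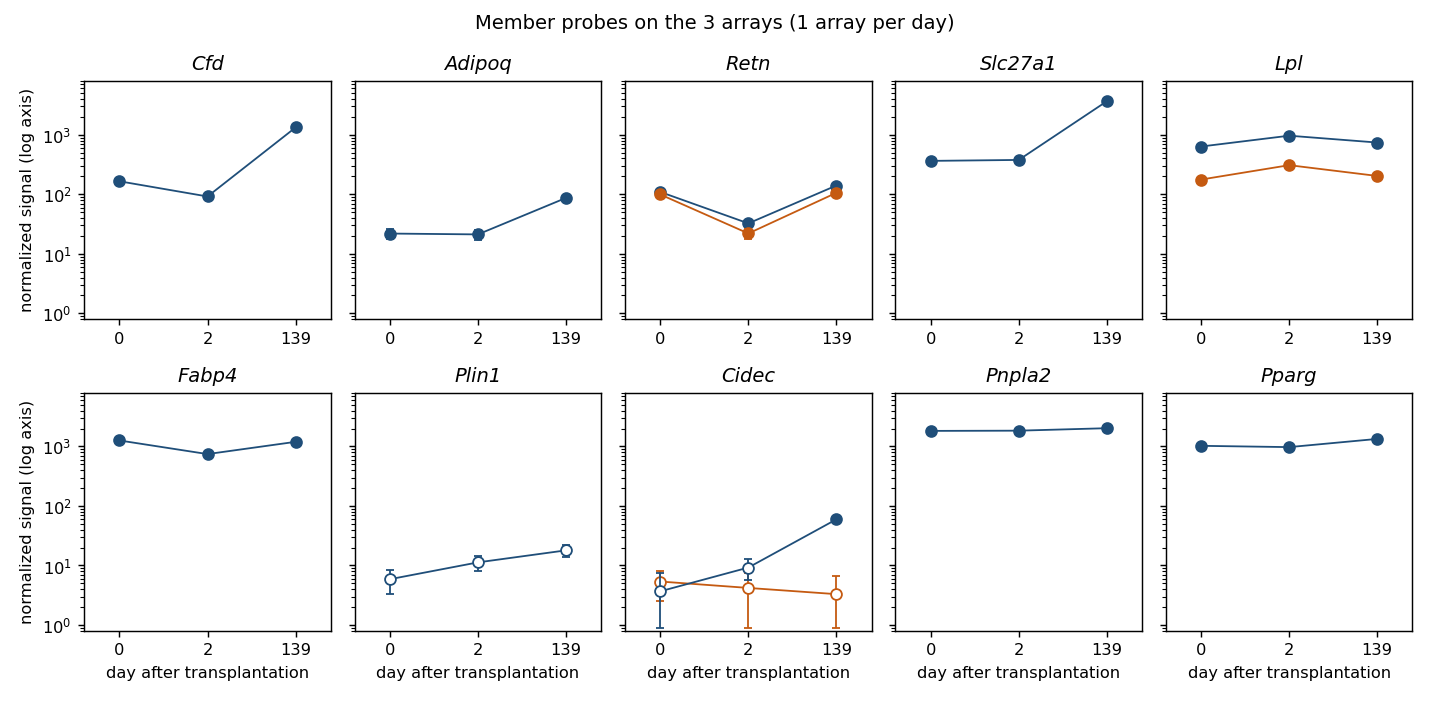
Normalized signal (log axis) of each member probe on the day 0, day 2 and day 139 arrays, 1 panel per gene. Filled points were well above background and open points were not, bars are the scanner error (shortened at the lower edge where they pass it), and orange marks the second probe of a gene. Cfd, Adipoq and Slc27a1 lie highest on day 139, Retn lies lowest on day 2, and Fabp4, Lpl, Pnpla2 and Pparg differ by less than 2-fold between arrays.

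Of the secreted factors, Cfd was highest on day 139 by a wide margin. Cfd, the serine protease that cleaves factor B in the alternative complement pathway, read 166 ± 16.8 (scanner error) on day 0, 92.0 ± 9.61 on day 2 and 1327 ± 133 on day 139. Its probe lies at chr10:79355302-79355361 (mm9, plus strand). The day 139 signal stood far above both earlier ones, and the day 2 signal was the lowest. The ratio was 8.01 for day 139 over day 0 (log2 3.00, scanner error 0.21) and 14.4 for day 139 over day 2 (log2 3.85, scanner error 0.21). Among the 1000 probes of most similar brightness the log2 ratio had an SD of 0.69 and 0.59, and Cfd lay 4.36 and 6.53 of these SDs from 0 (a local Z-score). By the day 139 over day 0 ratio Cfd ranked 66 among the 26887 probes well above background on all 3 arrays, and by day 139 over day 2 it ranked 25.

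Adipoq encodes adiponectin, the hormone made almost exclusively by adipocytes, and so is the most specific of the 3 hormones for fat. Its probe lies at chr16:23157576-23157635 (mm9, plus strand) and is shown because the signal rests on this single oligonucleotide.
Adipoq probe: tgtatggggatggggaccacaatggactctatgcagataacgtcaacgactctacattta
The signal was 21.9 ± 4.02 on day 0, 21.2 ± 3.99 on day 2 and 87.0 ± 9.76 on day 139. The first 2 values were close to the limit of detection and did not differ beyond the scanner error, while day 139 was clear of it. The ratios were 3.97 over day 0 (log2 1.99, scanner error 0.31, local Z 2.23) and 4.10 over day 2 (log2 2.04, scanner error 0.32, local Z 2.43). Both denominators were dim, and with normexp background correction the ratios were 1.81 and 1.79.

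Retn encodes resistin, which adipocytes make in mice. The gene had 2 probes at chr8:3657312-3657371 and chr8:3659757-3659816 (mm9, plus strand). The brighter is shown because its family has close relatives in neutrophils and macrophages.
Retn probe: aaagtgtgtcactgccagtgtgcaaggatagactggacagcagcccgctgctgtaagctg
The brighter probe read 110 ± 11.4 on day 0, 32.5 ± 4.52 on day 2 and 141 ± 14.7 on day 139, and the other 99.4 ± 10.5, 22.0 ± 4.14 and 106 ± 11.5. Both probes were low on day 2 and about level on day 0 and day 139, a course unlike that of Cfd or Adipoq. Day 2 over day 0 gave 0.297 and 0.221 (local Z -2.58 and -3.52), and day 139 over day 2 gave 4.33 and 4.82 (local Z 3.32 and 2.86). With normexp background correction the brighter probe gave 0.562 for day 2 over day 0 and 2.16 for day 139 over day 2. Day 139 over day 0 gave 1.28 and 1.07, inside the fold limits.

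The genes for uptake and carriage of fatty acids did not move together. Slc27a1 (FATP1), which brings long-chain fatty acids into the cell, read 365 ± 36.6 on day 0, 378 ± 38.0 on day 2 and 3659 ± 366 on day 139, from a probe at chr8:74110256-74110315 (mm9, plus strand). The first 2 arrays differed by less than the scanner error and the third stood alone. The ratios were 10.04 over day 0 (log2 3.33, scanner error 0.20, local Z 5.94, rank 35) and 9.68 over day 2 (log2 3.27, scanner error 0.20, local Z 5.82, rank 73).

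Lpl encodes lipoprotein lipase, which releases fatty acids from circulating triglyceride. Its brighter probe (chr8:71430267-71430326, mm9, plus strand) read 635 ± 63.6, 966 ± 96.6 and 741 ± 74.2 on the 3 days, and the other (chr8:71425050-71425109) read 177 ± 18.1, 309 ± 31.1 and 203 ± 20.9. Both were highest on day 2, with day 2 over day 0 at 1.52 and 1.74 (local Z 1.22 and 1.54). Day 139 over day 0 was 1.17 and 1.15. Day 139 over day 2 was 0.767 for the brighter probe and 0.659 for the other, the latter just past the lower limit of 0.66.

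Fabp4 (aP2), the fatty acid binding protein of adipocytes and also of macrophages and capillaries, read 1260 ± 126, 744 ± 74.4 and 1195 ± 120 (chr3:10204452-10204511, mm9, minus strand). Like Retn it was lowest on day 2, where its ratio to day 0 was 0.590 (log2 -0.76, local Z -1.74). Day 139 over day 2 was 1.61 (log2 0.68, scanner error 0.20, local Z 1.17). Day 139 over day 0 was 0.949, a log2 ratio of -0.08 that is smaller than the scanner error of 0.20.

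Of the lipid droplet proteins, Plin1 (perilipin 1), the coat protein of the adipocyte droplet, was not well above background on any array. Its probe (chr7:86866112-86866171, mm9, minus strand) read 5.88 ± 2.58, 11.3 ± 3.05 and 18.0 ± 4.27, the last just under the detection limit of 18.2, so no ratio was taken. Cidec (FSP27), which fuses droplets into the single large one, gave a split answer between its 2 probes on the minus strand.

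The Cidec probe at chr6:113374630-113374689 (mm9) read 3.68 ± 3.70 and 9.24 ± 3.58 on days 0 and 2, neither well above background, and 59.6 ± 7.45 on day 139. Against the lowest signal called detected on the earlier arrays, it was at least 4.61-fold higher than on day 0 and at least 4.25-fold higher than on day 2. With normexp background correction, which adds an offset of 50 to every signal, its ratios were 1.89 and 1.74. This probe passed detection only through day 139, so it had to differ there. The other probe, at chr6:113378116-113378175, is shown because it did not report the day 139 signal.
Cidec probe without signal: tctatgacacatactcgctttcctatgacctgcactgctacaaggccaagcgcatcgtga
It read 5.38 ± 2.86, 4.20 ± 3.36 and 3.30 ± 3.32, not well above background on any array. Which of the 2 probes reports the Cidec transcript in this tissue was not tested.

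Pnpla2 (ATGL), the lipase that starts the breakdown of stored triglyceride in adipocytes and most other cells, lay between the limits in all 3 comparisons. Its signal was 1824 ± 182, 1840 ± 184 and 2024 ± 202 (chr7:148645928-148645987, mm9, plus strand), with ratios from 1.01 to 1.11 in the 3 comparisons, each log2 ratio below the scanner error.

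Pparg, the master regulator of adipocyte differentiation, had 10 spots of one probe on each array (chr6:115440213-115440272, mm9, plus strand), of which 9, 7 and 10 were used. It read 1024, 974 and 1338. The spots within an array scattered with a coefficient of variation of 3.17%, 3.09% and 5.23%, the only estimate of within-array error from repeated spots among the members. The ratios of 1.31 over day 0 and 1.37 over day 2 (log2 0.39 and 0.46) were larger than the SD of the log2 spot signals, which was 0.046, 0.044 and 0.076, but stayed inside the fold limits and below 1 local SD (local Z 0.68 and 0.77).

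**Figure D2:**
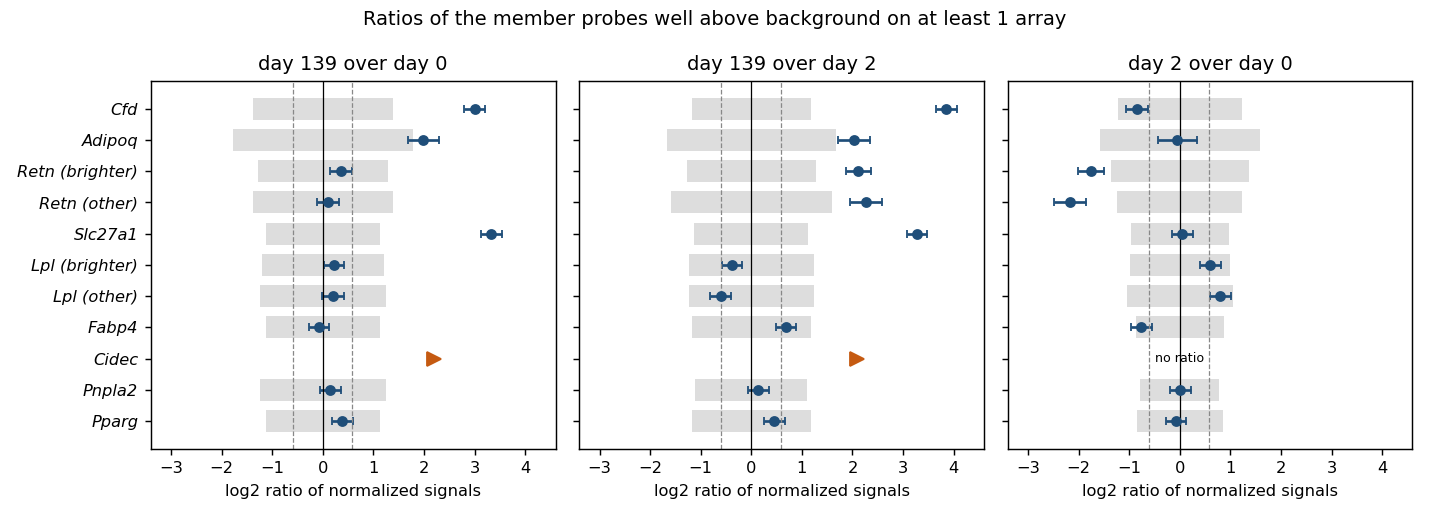
Log2 ratios of the 11 member probes well above background on at least 1 array, in the 3 comparisons. Points with bars are the ratio and its scanner error, grey bands are 2 local SDs on either side of 0, dashed lines are the fold limits of 1.5 and 0.66, and orange arrowheads are lower bounds. Cfd, Slc27a1 and Adipoq lie right of the band in both comparisons with day 139, while Retn does so over day 2 only and lies left of it for day 2 over day 0.

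By the brightest detected probe of each of the 9 genes, 4 (Cfd, Slc27a1, Adipoq and Cidec) were at a ratio of 1.5 or more for day 139 over day 0 and 0 were at 0.66 or less. Over all 32108 probes, 12.8% were at or above the upper limit and 14.7% at or below the lower. The median log2 ratio of the 9 genes was 0.39, against -0.02 over all probes. For day 139 over day 2, which uses the same day 139 array, 6 genes were at or above 1.5 (the same 4 with Retn and Fabp4) and 0 at or below 0.66, with 12.4% and 14.4% of all probes past these limits, and the median was 2.04 against -0.04. These counts include the members picked for their signals on these arrays, and Cidec by its bound. For day 2 over day 0, 10.1% of all probes were higher and 10.4% lower past the limits. Lpl was higher, a call lost with normexp and with spike-in scaling (lowest ratio 1.48), Cfd, Retn and Fabp4 were lower, and Cidec was below detection on both days and has no ratio.

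A stricter rule, the fold limits together with a local Z-score of at least 2, was passed by 2.59% of all probes for day 139 over day 0 and by 2.54% for day 139 over day 2. Cfd, Slc27a1 and Adipoq passed it in both, and Retn in the second. The matching lower rule (at most 0.66 with a local Z of at most -2) was passed by 2.07% and 1.59% of probes and by 0 members. For day 2 over day 0 the shares were 1.83% higher and 2.48% lower, and Retn, lower, was the only member among them. Scaling on 8 spike-in controls, whose signal on the day 139 array was 65.6% of that on day 0 before normalization, moved the median log2 ratio of all probes to 0.36 over day 0 and 0.40 over day 2. Under that scaling Pparg reached 1.73 over day 0 and 1.86 over day 2, Retn 1.67 and Lpl 1.54 over day 0, and the log2 ratios of Fabp4 over day 0 (0.34) and of Lpl over day 2 (0.06) turned from below to above 0.

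Other white fat genes passed the limits at day 139 at shares near those of all probes. Of 30 on the list, 27 were detected. For day 139 over day 0, 18 lay between the limits, 4 were past the upper limit and 5 past the lower, with a median log2 ratio of -0.09 (-0.06 with dim signals raised to the detection limit). Over all probes 12.8% were past the upper limit and 14.7% past the lower. For day 139 over day 2 the counts were 4 and 3 and the median 0.03, with 12.4% and 14.4% of all probes past the limits. With spike-in scaling 9 were past the upper limit in each comparison, with 2 and 1 past the lower. Under that scaling 30.8% and 34.2% of all probes were past the upper limit.

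Car3, a carbonic anhydrase abundant in fat, was the white fat gene with the largest ratio measured on both arrays. It read 28.7 on day 0, 28.5 on day 2 and 202 on day 139, a ratio of 7.03 and 7.09, so it was level on the first 2 arrays and high on the third as Slc27a1 and Adipoq were. Scd1, a fatty acid desaturase, read 1023, 772 and 1763 (ratios 1.72 and 2.28). Lipe, the hormone-sensitive lipase, and Gpam, the first enzyme of glycerolipid synthesis, gave 1.47 and 1.32 over day 0, short of the limit, and 1.89 and 1.66 with spike-in scaling. The Gpam value is from its brighter probe, which was dim. The other Gpam probe went the other way, with a log2 ratio of -0.76 over day 0, past the lower limit. Pck1, which makes the glycerol backbone of triglyceride in fat, was detected only on day 139 at 37.4, at least 2.89-fold above day 0 and at least 2.66-fold above day 2. Like the Cidec probe it passed detection only through day 139, so it had to differ there.

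Other white fat genes went the other way. Dgat2, which adds the last fatty acid to triglyceride, read 945, 275 and 293, already low on day 2. Slc2a4, the insulin-responsive glucose transporter GLUT4, read 1383 and 1380 and then 682 (ratio 0.493 over day 0). Thrsp, a regulator of lipid synthesis, stood at 0.520 over day 0, and at 0.681 with spike-in scaling. Lep, the adipocyte hormone leptin, was not well above background on any array, nor were Adrb3 and Acvr1c. Adig, a small adipogenic protein, was detected by its brightest probe on day 2 only (15.7, 158 and 10.5), and its 2 probes moved past the limits in opposite directions for day 139 over day 2.

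Of 10 brown fat genes, Ucp1, Cidea and Elovl3, which define thermogenic fat, were not well above background on any array. Cox7a1 was at 1.84 and Cox8b at least at 2.10 over day 0. By their brightest probes Ppargc1a, Prdm16, Otop1 and Ppara were between 0.914 and 1.13. The other detected probe of Otop1 gave a log2 ratio of -1.04, past the lower limit, and that of Ppara -0.55, inside it.

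**Figure D3:**
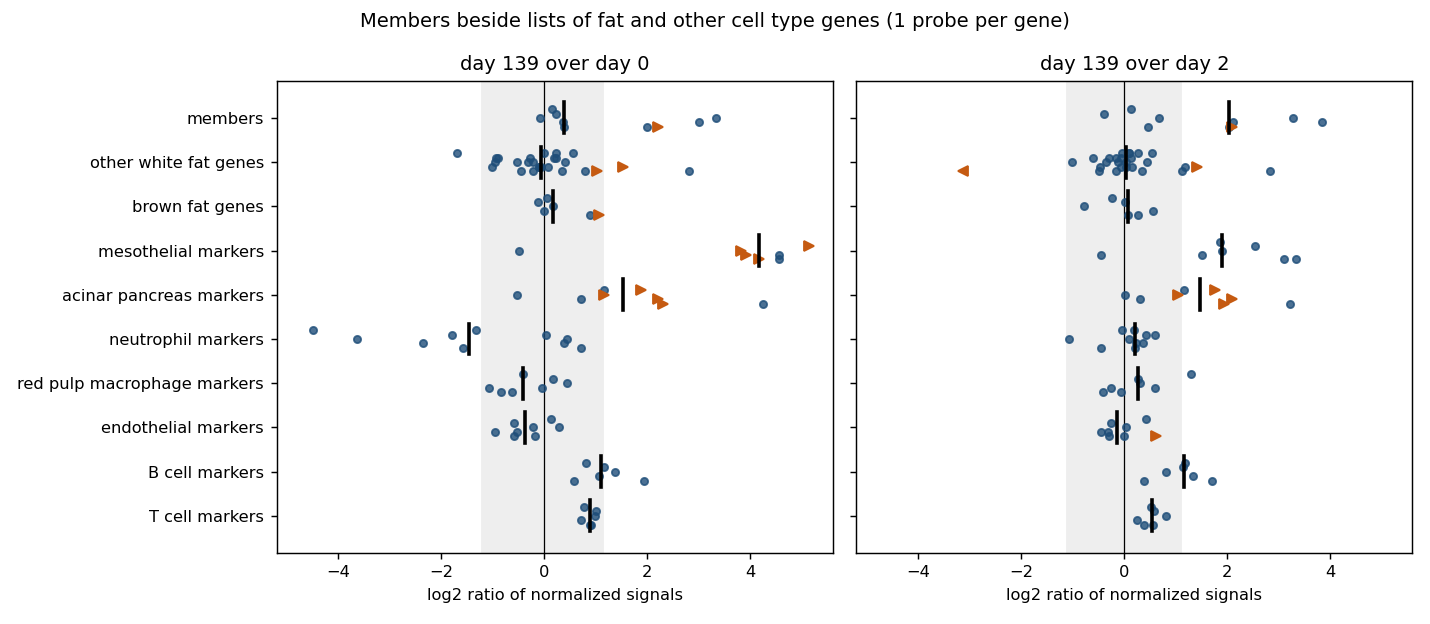
Log2 ratio of each gene of a list (1 probe per gene) for day 139 over day 0 and over day 2. Points are ratios measured on both arrays, orange arrowheads are bounds, black bars are list medians with dim signals raised to the detection limit, and the grey band holds the middle of all 32108 probes from the 5th to the 95th percentile (-1.22 to 1.14 and -1.12 to 1.11). The white fat genes centre near 0 while the mesothelial and acinar markers lie to the right.

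Relatives of the members were followed by family. Among the 6 fatty acid transport proteins Slc27a1 was the only one past the upper limit at day 139, although with spike-in scaling Slc27a3 reached 1.56 over day 0 and Slc27a4 1.51 over day 2. Slc27a3 (520, 705 and 617) and Slc27a4 (108, 106 and 119) lay between the limits, Slc27a5 was at the edge of detection (17.7, 19.5 and 18.9), Slc27a6 was not detected, and Slc27a2 was detected only on day 0, at 42.6, at least 2.34-fold above day 139. Of the fatty acid binding proteins, Fabp5 (8183, 4604 and 5984) had its lowest signal on day 2 as Fabp4 did, with a day 2 over day 0 ratio of 0.563. Fabp7 (111, 289 and 92.6) and Fabp3 (46.9, 105 and 57.0) had their highest there. Fabp1 rose to a ratio of 3.11 over day 0 (17.1, 28.1 and 53.3) and Fabp2 was detected on day 139 only, at 22.5. Fabp6 was not detected.

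The perilipins differed from each other. Plin2, the droplet coat of most non-fat cells and of foamy macrophages, read 6116, 7835 and 2243, a ratio of 0.367 over day 0 and 0.286 over day 2. Plin3 read 2369, 1713 and 3161, Plin4 62.7, 28.6 and 62.1, and Plin5 was detected on days 0 and 2 only, at 86.6 and 17.8, at least 4.34-fold higher on day 0 than on day 139. Cideb, the liver relative of Cidec, read 99.2, 135 and 51.6, past the lower limit at 0.521 over day 0 (0.667 with spike-in scaling) and 0.381 over day 2, and Cidea was not detected. In the partners of Pnpla2, its inhibitor G0s2 read 796, 351 and 326 (ratio 0.409 over day 0), its coactivator Abhd5 280, 274 and 210, and Mgll, which finishes the breakdown, 4214, 3732 and 2930. Pnpla3 was not detected.

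Angptl4, the secreted inhibitor of lipoprotein lipase, read 8349, 7547 and 1709, a ratio of 0.205 over day 0 and 0.226 over day 2. The capillary anchor Gpihbp1 (2185, 1836 and 1817), the cofactor Apoc2 (1223, 1436 and 894) and the maturation factor Lmf1 (621, 959 and 896) stayed inside the limits over day 0, except Lmf1 with spike-in scaling (1.90). Lipc and Lipg were not detected. By their brightest probes the 6 PPAR and RXR receptors were all between the limits in the 3 comparisons. With spike-in scaling Rxrb (1.60) and Rxrg (1.86) joined Pparg past the upper limit over day 0. Ppard stood at 0.685 and Rxrg at 1.40 over day 0 by these probes. The other detected probes of Rxra, Rxrg and Ppara gave log2 ratios of -1.29, 1.49 and -0.55 over day 0. The adiponectin receptors Adipor1 (2141, 2274 and 2350) and Adipor2 (8050, 8090 and 8209) were level on all arrays, and Cdh13, which binds adiponectin at the cell surface, was detected on day 139 only, at 30.9.

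Complement partners of Cfd gave smaller ratios than Cfd. Its substrate Cfb read 2273, 2106 and 3304 (ratios 1.45 and 1.57), and C3 34420, 26297 and 45495 (1.32 and 1.73). Properdin (Cfp), which stabilises the convertase, read 23842, 26016 and 20538 (0.861 and 0.789), and Cfi was not detected. With spike-in scaling Cfb and C3 were past the upper limit over day 0 too, at 1.91 and 1.81.

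**Figure D4:**
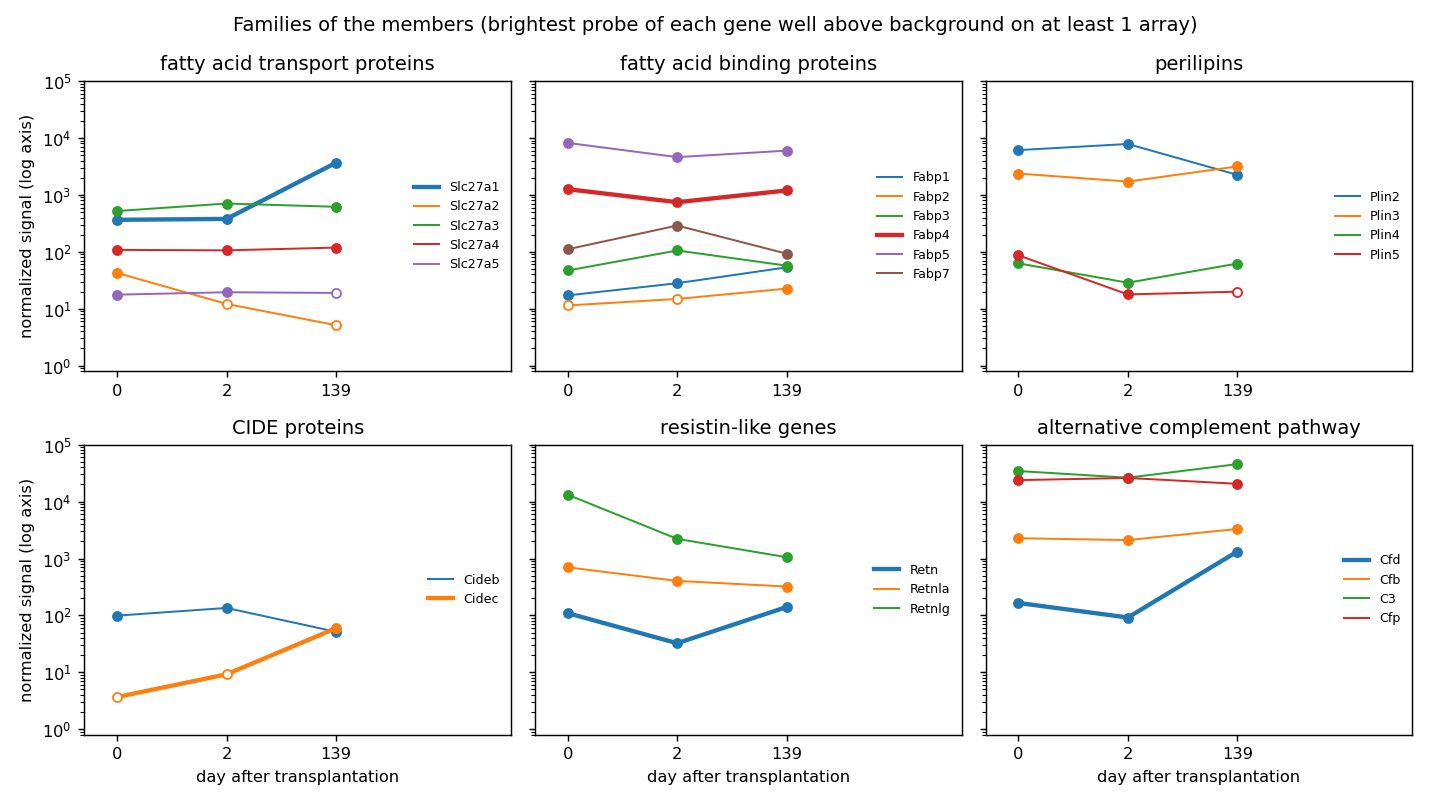
Normalized signal (log axis) of the families of 6 members on the 3 arrays, brightest detected probe of each gene shown, with the members as thick lines and open points where a probe was not well above background. The course of a line can be read but the height of different lines cannot be compared. Slc27a1 and Cfd rise to 3659 and 1327 on day 139 while Slc27a4 and Cfp stay between the fold limits.

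Most neutrophil markers and the detected resistin relatives were lower on day 2 than on day 0, as Retn was. At day 139 the resistin relatives stayed low, and the neutrophil markers differed from each other. Retnlg, a resistin-like gene of neutrophils and their precursors, read 13195, 2214 and 1055, and Retnla, made by alternatively activated macrophages, 700, 404 and 322, so that both, like Retn, were lower on day 2 than on day 0, but neither returned on day 139. Retnlb was not detected. Of 10 neutrophil markers, with Retnlg again among them, 6 were past the lower limit for day 2 over day 0 and 0 past the upper. Over all probes the shares were 10.4% and 10.1%. For day 139 over day 0, where Retn lay inside the limits, 6 markers were past the lower limit and 1 past the upper (14.7% and 12.8% of all probes). For day 139 over day 2, 1 marker was past the upper limit and 1 past the lower (12.4% and 14.4% of all probes). The higher one was Ly6g (517, 352 and 532), just past the limit at 1.51 and at 1.03 over day 0, a course like that of Retn. The summed signal of the 10 markers was 227108, 76345 and 88178, of which S100a9 made up 147009, 51357 and 58589. Their part in the Retn result was not tested. Mmp8 (3033, 140 and 135) and Cxcr2 (1443, 242 and 283) were among the 6 past the lower limit over day 0, while Camp (5295, 7500 and 8696) and Ltf (1367, 1742 and 1864) were not.

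Most mesothelial and acinar pancreas markers were also higher on day 139. The 7 mesothelial markers are genes of the lining on the surface of abdominal organs and of visceral fat. Of them, 6 were past the upper limit over day 0 and 6 over day 2, against 12.8% and 12.4% of all probes. Upk3b, Lrrn4, Gpm6a and Upk1b were below detection on day 0, so over day 0 they count by a bound, at least 14.2-fold. The summed signal of the 7 was 1634, 2178 and 4899, of which Wt1, the brightest probe on the first 2 arrays, made up 1492, 1443 and 1057. Msln (mesothelin) read 96.4, 390 and 2283, and Krt19 20.6, 170 and 486. Upk3b was below detection on day 0 and read 45.5 and 459. Wt1 was the marker not past the upper limit. Of these markers 6 were also past the limit for day 2 over day 0, against 10.1% of all probes. Upk3b, Lrrn4, Gpm6a and Upk1b count there by a bound too, at least 2.12-fold. Cfd, Slc27a1 and Adipoq were not higher for day 2 over day 0. The list median log2 ratio, with dim signals raised to the detection limit, was 4.18 for day 139 over day 0, 1.91 over day 2 and 1.96 for day 2 over day 0.

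Of 8 acinar pancreas markers, 7 were past the upper limit over day 0 and 6 over day 2, with summed signals of 1007, 792 and 1396. Over all probes the shares past it were 12.8% and 12.4%. Amy2a5 (amylase) read 21.3, 43.4 and 404 and Ctrb1 51.4, 51.3 and 115. Prss2, Cpa1, Cpb1 and Pnlip were detected on day 139 only, at 29.0 to 63.6. They passed detection only through day 139, so they had to count as higher in both comparisons. Cela1 was not higher (870, 599 and 603), although it was the largest part of each sum. The part of the mesothelial and acinar signals in those of the fat genes was not tested.

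Markers of spleen cells were detected on every array, each listed one well above background on all 3 except the endothelial Emcn on day 2 and Adgre1, for which no probe carries that name. The B cell markers summed to 33062, 33241 and 70746, with 5 of 6 past the upper limit over day 0, among them Blk (ratio 3.85) and Cd79a (2.58). All 6 T cell markers were past it over day 0, at 1.64 to 2.00, and 1 over day 2 (6 with spike-in scaling). Red pulp macrophage markers were past the lower limit in 3 of 7 over day 0 (1 with spike-in scaling), with Hmox1 at 0.473. Over day 2 they went the other way, with 2 past the upper limit (Spic at 2.47, Hmox1 at 1.51) and 0 past the lower. Endothelial markers were past the lower limit in 1 of 8 over day 0, Tek at 0.516. Over all probes 12.8% were past the upper limit and 14.7% past the lower over day 0, and 12.4% and 14.4% over day 2. The part of these cell markers in the results for the members was not tested.

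The genes around the members on the chromosome gave smaller ratios. Among the RefSeq neighbours of Cfd, Prtn3, Elane and Med16 stood at 1.06, 1.36 and 1.00 for day 139 over day 0, and R3hdm4 at 1.499 but at 0.821 over day 2. Beside Slc27a1, Tmem221, Nxnl1 and Pgls stood at 1.05, 1.08 and 1.24, and Niban3 (210, 217 and 466) at 2.22. Beside Adipoq, Eif4a2 stood at 1.07, Rfc4 at 0.640 and St6gal1 at 2.66.

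The probes most like Cfd were sought by their course over the 3 arrays. Among the probes detected on all arrays, 1466 were higher past the limit in both comparisons with day 139. The 5 nearest to Cfd by their 2 log2 ratios had day 139 over day 0 ratios of 7.41 to 8.79. Only 1 carries a gene name on the array, Igh-VJ558, an immunoglobulin heavy chain variable gene, which read 250, 152 and 2156, and the other 4 carry transcript identifiers only. The likeness rests on 3 arrays.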

How the data were processed

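Spleen RNA was hybridised to 3 one-colour Agilent arrays (Cy3). The deposited scanner files hold intensity values that the authors obtained with Feature Extraction (10.7.1.1 per the file headers, 9.5.1.1 per the labels), background-subtracted and detrended within each array, and the deposited value table holds intensity after quantile normalization over the 3 arrays. Deposited spot flags gave detection.

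Here gProcessedSignal was averaged over the spots of a probe, without outlier-flagged and control spots, set to at least 1 and quantile normalized (Python 3.11.15, numpy 2.4.6, pandas 2.3.3). A gene is given by its brightest detected probe. Ratios of at least 1.5 or at most 0.66 were called, as in the methods, with a Z-score of at least 2 or at most -2 as a second rule. Where a probe was not well above background on 1 side, a bound was taken against the lowest signal well above background there. The number of arrays limits the precision. Alternatives were normexp (limma 3.58.1, R 4.3.3, offset 50), 75th percentile and spike-in scaling, the deposited table, a floor, detection filters, flagged spots and probe choice. The calculation was tested on simulated data. Array names are on mm9, and RefSeq names and promoters on GRCm38.p6.

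The members and lists were chosen with earlier results of these data known. Named genes were all members and their families, up to 4 genes with the largest and 4 with the smallest ratios of each other list among those measured on both arrays, and the 5 probes most like Cfd. Genes detected on 1 side only, genes not detected, marker examples beyond that rule and chromosomal neighbours were named after their values were seen. The values of 2 listed genes are not reported here, although list counts include them.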

Additional observations from a re-analysis of the deposited data

How the results depend on the processing

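The direction and the call of Cfd, Slc27a1 and Adipoq in both comparisons with day 139 were the same under all 9 alternatives that were run. Each of these genes has a single probe, well above background on every array. The floor, the detection filters and the probe choice therefore could not change their values, and their agreement there was fixed in advance. Their ratios over day 0 ranged from 6.10 to 10.5, from 9.08 to 13.1 and from 1.81 to 5.03, and over day 2 from 9.28 to 19.7, from 8.71 to 13.2 and from 1.79 to 5.64. Of 240 values of single members under an alternative, 213 moved by less than the error of the ratio and 27 by more. These counts include alternatives that could not change a value. Of them 0 went from past a limit to past the opposite one. With spike-in scaling Retn, Lpl and Pparg over day 0 and Pparg over day 2 became higher at day 139. For day 2 over day 0, Lpl was no longer higher with normexp and spike-in scaling, nor Cidec with normexp and the floor.

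The median log2 ratio of the members for day 139 over day 2 (2.04) was 0.80 with normexp, 2.50 with spike-in scaling, 1.36 with detection required on all 3 arrays and 1.36 without a detection filter. For day 139 over day 0 (0.39) it was 0.79 with spike-in scaling and 1.00 without a filter. With spike-in scaling 7 members were higher past the limit for day 139 over day 0. For day 2 over day 0, counting Cidec by its undetected signals, 2 members were higher, against 0 with normexp, 1 with spike-in scaling, 1 with the floor and 1 with detection on all arrays. The share of all probes higher over day 0 was 12.8% and went to 30.8% with spike-in scaling and 5.71% with normexp, and the share lower from 14.7% to 7.51% and 5.32%. Over day 2 the shares higher were 34.2% and 5.38%. Apart from the changes that detection and scaling bring by construction, the cause was not tested.

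No paired analysis was possible because each day is 1 array. Signals near the detection limit (Adipoq on days 0 and 2, Cidec, Plin1) are the least certain.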
